A study of Mus musculus with 7 samples.

Results

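The 36 genes described here encode the enzymes, carriers and regulators that remove reactive oxygen species and maintain glutathione and thioredoxin. They were chosen by name and known role, under a rule that holds no measured value, as rows of a deposited count table of 55487 genes. All 36 were found under their symbols, and all 36 passed the filter on low counts that left 16203 genes to be tested. The table holds RNA of pancreatic islets, isolated from mice after 15 weeks on a 60% high-fat diet and kept in culture medium for 24 hours before harvest. Libraries came from 3 Traf6 KO mice, in which the ubiquitin ligase gene Traf6 was deleted specifically in beta cells according to the series' design text, and from 4 control mice. Every animal of both groups received the high-fat diet. The labels do not name the Cre driver, the floxed allele, the strain, the age or the sex, and 1 library was taken as 1 mouse, which the animal tag of each title shows only indirectly.

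Beta cells are known for low expression of enzymes that remove hydrogen peroxide, above all catalase, and for their reliance on peroxiredoxins and thioredoxin. Superoxide dismutases turn superoxide into hydrogen peroxide, which catalase, glutathione peroxidases and peroxiredoxins then reduce. Glutathione is built from cysteine in a pair of ligase steps and is returned to its reduced form by glutathione reductase. The transcription factor NRF2, held in check by KEAP1, switches on many of these genes through the antioxidant response element, and metallothioneins are switched on by zinc through metal response elements.

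Library totals ran from 22104256 to 25091055 counts in Traf6 KO and from 22161097 to 29917292 counts in control. The 29 markers of acinar cells, the enzyme-secreting cells of the exocrine pancreas, took 56.5%, 43.1% and 1.64% of counts in Traf6 KO 1 to 3, against 20.2%, 0.490%, 0.467% and 3.24% in controls 1 to 4. None of these 29 markers was at 0 counts in all libraries. Averaged over the list, log2(CPM + 1) stood at 13.3, 12.4 and 7.15 in Traf6 KO 1 to 3, against 11, 5.63, 5.55 and 8.0 in controls 1 to 4. Traf6 itself stood at 14.7, 15.3 and 14.5 CPM (counts scaled to a common library size with TMM factors) in Traf6 KO 1 to 3, against 17.9, 25.5, 22.1 and 12.6 CPM in controls 1 to 4 (log2 fold change -0.40 ± 0.22, SE, edgeR adjusted p = 0.416). The library labelled control 4 lay below every Traf6 KO library, and directions below were drawn with it among the controls. A count over the whole gene does not show a deleted exon. Traf6 KO 3 had 421 CPM of Xist and 0 CPM of the Y-linked genes Ddx3y, Eif2s3y, Kdm5d and Uty, whereas Xist was at most 0.388 CPM and Ddx3y at least 34.4 CPM in the other libraries. The first letter of the animal tags sets Traf6 KO 3 and control 4 (S) apart from the rest (Q and R). In this S-tagged pair genotype cannot be told apart from the difference in Xist and Y-linked expression. Within Q, the tags of Traf6 KO 1, Traf6 KO 2 and control 1 are consecutive numbers, and these were the libraries with the most acinar counts. Values given below without these 3 acinar-rich libraries keep Traf6 KO 3 as the only Traf6 KO library. They show no spread within Traf6 KO, and in them genotype cannot be told apart from the Xist and Y-linked difference. As a check of the islet label, the 14 beta-cell markers found in the table averaged 9.62, 9.81 and 9.90 on the log2(CPM + 1) scale in Traf6 KO 1 to 3, against 10.2, 10.1, 10.1 and 10.1 in controls 1 to 4. Ins2 stood at 86608, 73802 and 65047 CPM in Traf6 KO 1 to 3, against 124780, 101830, 122310 and 119190 CPM in controls 1 to 4. Ins1 stood at 14715, 12902 and 10830 CPM, against 44500, 36449, 41063 and 20889 CPM in the same order. The beta-cell markers took 5.85%, 7.65% and 12.3% of counts in Traf6 KO 1 to 3, against 18.25%, 20.5%, 23.1% and 20.1% in controls 1 to 4. Such shares, here and below, are of all counts, so the acinar counts of a library lower the shares of its other markers. Of the 14, 13 had a log2 fold change below 0 and 1 above. The part of this lower beta-cell share in the values of the members was not tested.

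No antioxidant gene passed the test between genotypes. Of the 36 members 0 had an edgeR adjusted p under 0.05, and the same held for 0% of all 16203 genes tested. The lowest adjusted p among members was 0.1765, which was also the lowest of all genes. Genes outside the members, such as Rbx1 and Selenow, shared this value. At an unadjusted p under 0.05, 6 members (16.7%) were higher and 6 (16.7%) lower in Traf6 KO, beside 8.81% and 7.17% of all genes. All Traf6 KO values exceeded all control values in 1 member, Gclc, beside 5.58% of all genes. All Traf6 KO values were under all control values in 3 members, Prdx2, Srxn1 and Glrx, beside 8.68% of all genes. At 2.78% and 8.33% of the members, these counts were no larger than the shares among all genes. The log2 fold change was above 0 in 17 members and below 0 in 19, with a median of -0.04 against 0.0051 for all genes, of which 50.7% were above 0. The DESeq2 Wald test, which called 3.43% of all genes higher and 1.79% lower, called Cat (adjusted p = 0.00746) and Gclc (0.0132) higher and Glrx (0.00298) lower. Without Traf6 KO 3, edgeR called Cat, Prdx4, Slc7a11 and Gclc higher and Glrx lower (adjusted p = 0.0225, 0.0341, 0.0480, 0.0253 and 0.0291). These were 5 of the 36 members, beside 701 of all 16540 genes tested (568 higher, 133 lower). That comparison keeps as Traf6 KO only the libraries with 56.5% and 43.1% acinar counts.

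**Figure D1:**
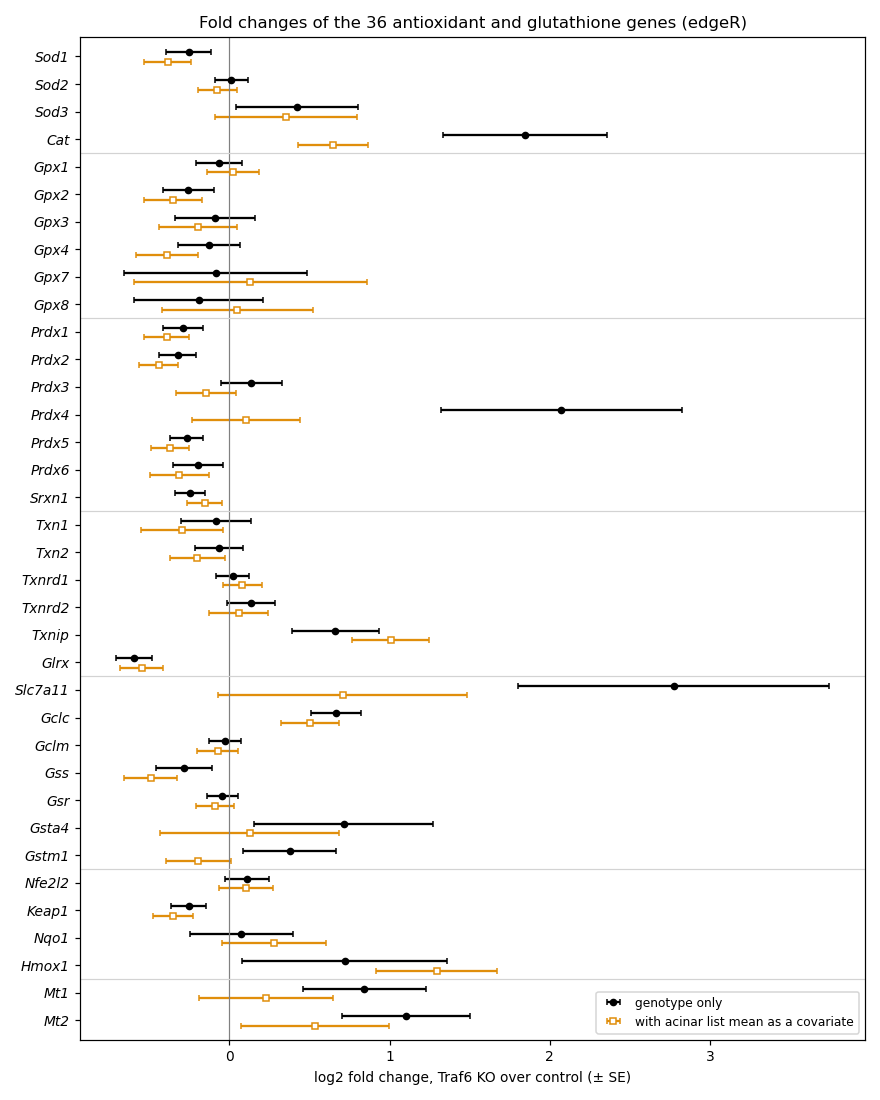
Log2 fold changes of Traf6 KO over control for the 36 genes, grouped by role and separated by lines, with SE as error bars. Black circles are from the comparison of genotypes alone and open squares from the fit that also holds the acinar marker level. Cat, Prdx4 and Slc7a11 stand far to the right as circles (1.85, 2.07 and 2.77) and much nearer to 0 as squares (0.65, 0.10 and 0.71).

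The abundance of the members spanned a wide range. Per kilobase of annotated exon, Gpx3, a secreted glutathione peroxidase, was the most abundant at 285 CPM per kb over the 7 libraries. Mt2 (171 CPM per kb), Mt1 (162) and Txnip (130) followed, and Gpx4 (73.5), Gpx1 (56.9) and Sod1 (54.9) came next. In control islets catalase stood at only 3.47 CPM per kb, beside 58.0 CPM per kb for Gpx1 and 31.2 CPM per kb for Prdx1. The lowest levels were those of Sod3 (0.620 CPM per kb), Gsta4 (0.353) and Slc7a11 (0.0717). These values divide by the union of all annotated exons, so a gene with long rarely used exons, such as Sod2 with 10008 bases, is set low.

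Among the dismutases and catalase the expression of Cat differed most. Cat (chr2:103453849-103485160, minus strand, GRCm38), which splits hydrogen peroxide in peroxisomes, had 51.6, 36.3 and 10.4 CPM in Traf6 KO 1 to 3, against 13.6, 6.69, 5.74 and 10.2 CPM in controls 1 to 4. Traf6 KO 1 and 2 were high and Traf6 KO 3 lay within the range of controls, so the groups overlapped. This amounts to a log2 fold change of 1.85 ± 0.51 (SE) with an edgeR adjusted p of 0.205, and the exact two-sided permutation test gave p = 0.1143, where 0.0571 is the smallest that 3 against 4 libraries allow. The order of Cat over the libraries was close to that of the acinar markers, with control 1 the highest control in both. With the acinar level as a covariate the log2 fold change was 0.65 ± 0.22 (adjusted p = 0.254), and without the 3 acinar-rich libraries it was 0.46. Sod1, the copper-zinc dismutase of the cytosol, had 231, 182 and 176 CPM in Traf6 KO 1 to 3, against 258, 219, 243 and 217 CPM in controls 1 to 4 (log2 fold change -0.25 ± 0.14). Sod2, the manganese dismutase of mitochondria, averaged 83.2 ± 9.0 CPM in Traf6 KO and 82.5 ± 2.35 CPM in control (SD, n = 3 and 4). Sod3, the extracellular form, was scarce at 1.29 to 3.89 CPM in Traf6 KO and 1.67 to 2.45 CPM in control.

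**Figure D2:**
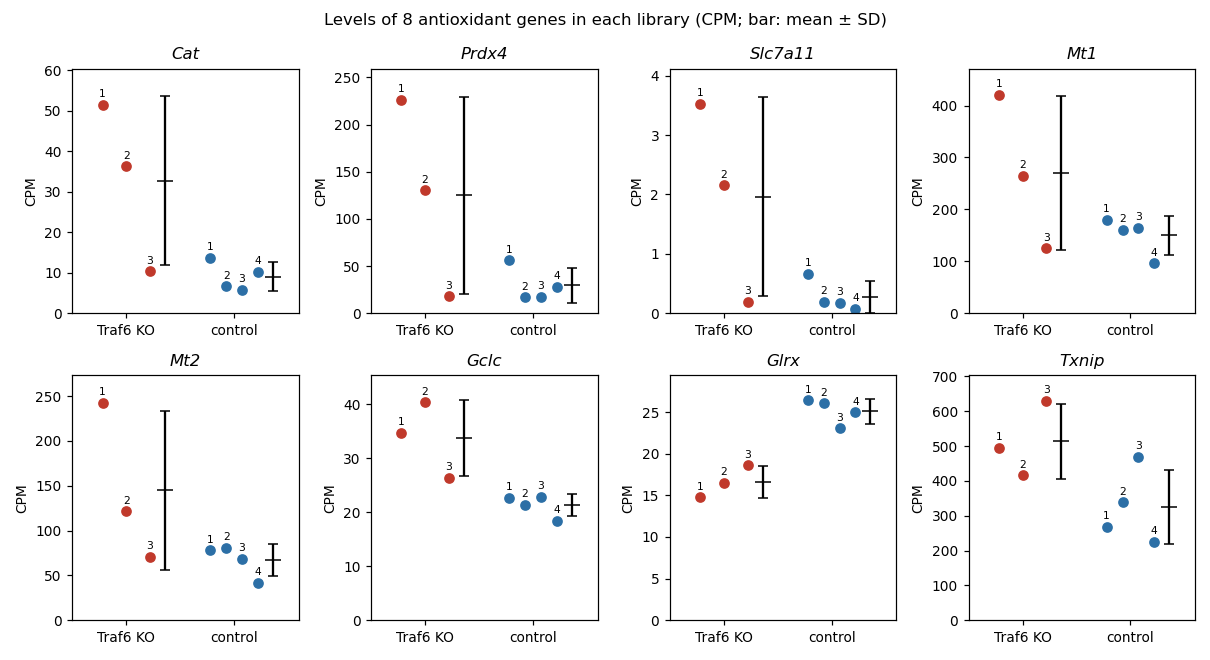
CPM of 8 members in each library, Traf6 KO in red and control in blue, with the library number above each point and the mean ± SD beside each group (n = 3 and 4). Cat, Prdx4, Slc7a11, Mt1 and Mt2 are highest in Traf6 KO 1 and 2, Gclc and Glrx separate the groups, and Txnip is highest in Traf6 KO 3 at 630 CPM.

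None of the 6 glutathione peroxidases had a positive log2 fold change, and none passed the test. Gpx1, the general cytosolic enzyme, had 87.5, 61.6 and 90.9 CPM in Traf6 KO 1 to 3, against 81.5, 82.1, 88.6 and 82.3 CPM in controls 1 to 4. Gpx4, which reduces lipid peroxides and guards against ferroptosis, had 162, 111 and 88.5 CPM in Traf6 KO 1 to 3, while controls 1 to 4 had 134, 128, 131 and 132 CPM. Its 4 controls lay close together and the Traf6 KO libraries lay on either side of them (log2 fold change -0.13 ± 0.19, edgeR adjusted p = 0.781). Gpx3 had 454, 467 and 576 CPM in Traf6 KO 1 to 3, against 775, 473, 395 and 477 CPM in controls 1 to 4. Control 1 was the highest library of the 7 for Gpx3, and without it the log2 fold change turned to 0.18 (-0.09 ± 0.25 with it, edgeR adjusted p = 0.890). Gpx2, an epithelial form, averaged 13.4 ± 2.33 CPM in Traf6 KO and 15.9 ± 2.00 CPM in control (SD, n = 3 and 4). Gpx7 and Gpx8, which act in the endoplasmic reticulum, lay between 0.323 and 1.81 CPM in all libraries.

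Peroxiredoxins formed a group of 4 with slightly lower values in Traf6 KO and a single gene with much higher values. Prdx4 (chrX:155323918-155340754, minus strand), the peroxiredoxin of the endoplasmic reticulum and of secretory cells, had 226, 130 and 17.9 CPM in Traf6 KO 1 to 3. Controls 1 to 4 had 56.0, 17.0, 17.6 and 28.0 CPM. The 3 libraries with the most Prdx4 were the 3 richest in acinar transcripts, and Traf6 KO 3 was among the low ones. edgeR put the log2 fold change at 2.07 ± 0.75 (adjusted p = 0.260, exact permutation p = 0.1714). With the acinar covariate it was 0.10 ± 0.34. Without the 3 acinar-rich libraries, with Traf6 KO 3 as the only Traf6 KO library, it turned to -0.22. Prdx4 lies on the X chromosome, and any part of sex in its values was not tested. Its ratio to the mitochondrial Prdx3, which does not depend on scaling, was 7.65, 5.91 and 1.12 in Traf6 KO 1 to 3, against 2.54, 0.837, 0.856 and 1.5 in controls 1 to 4. Prdx3 itself averaged 22.5 ± 6.79 CPM in Traf6 KO and 20.4 ± 1.39 CPM in control (SD, n = 3 and 4).

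The cytosolic Prdx2 had 92.4, 78.0 and 76.6 CPM in Traf6 KO 1 to 3, against 113, 92.6, 103 and 103 CPM in controls 1 to 4. The groups did not overlap, by a margin between 92.4 and 92.6 CPM that vanished with DESeq2 size factors (log2 fold change -0.32 ± 0.11, edgeR adjusted p = 0.253, exact permutation p = 0.0571). Prdx2 is also abundant in red blood cells, whose 6 markers, none at 0 counts in all libraries, took 0.00153% to 0.00312% of counts in Traf6 KO and 0.00452% to 0.0225% in control, and their part in Prdx2 was not tested. All 5 erythroid markers tested had a log2 fold change below 0. Prdx1, a close relative of Prdx2, had 90.9, 71.4 and 70.5 CPM in Traf6 KO 1 to 3, against 98.4, 86.0, 100 and 94.4 CPM in controls 1 to 4 (log2 fold change -0.29 ± 0.12, adjusted p = 0.306). Prdx5, found in mitochondria and peroxisomes, averaged 62.1 ± 5.07 CPM in Traf6 KO and 74.7 ± 6.08 CPM in control (log2 fold change -0.27 ± 0.11, edgeR adjusted p = 0.283, SD with n = 3 and 4). Prdx6, which also acts on phospholipids, averaged 96.0 ± 15.1 CPM in Traf6 KO and 110 ± 16.1 CPM in control (SD, n = 3 and 4). Srxn1, sulfiredoxin, which repairs overoxidised peroxiredoxins, had 38.1, 39.5 and 44.8 CPM in Traf6 KO 1 to 3, against 47.1, 51.1, 48.7 and 46.6 CPM in controls 1 to 4. Srxn1 did not overlap between the groups under any of 3 scalings (log2 fold change -0.24 ± 0.09, edgeR adjusted p = 0.275). Reads of Prdx2 and Prdx5 may include those of genes on the opposite strand, since their exons overlap Junb, Rnaseh2a and Trmt112 and the strand setting is not given in the sources used here.

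**Figure D3:**
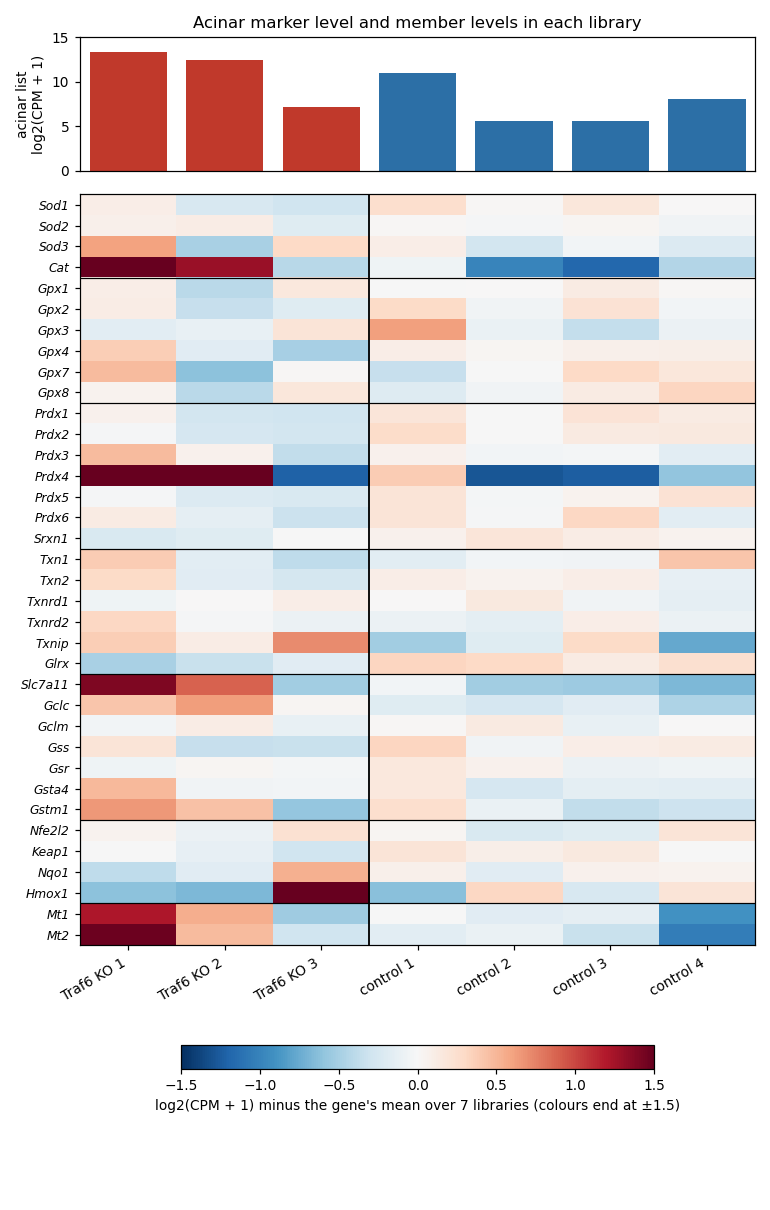
Each of the 36 genes (rows, grouped by role) in each library (columns, Traf6 KO left of control) as log2(CPM + 1) minus its mean over the 7 libraries, with colours that end at ±1.5. The bars on top give the mean log2(CPM + 1) of the 29 acinar markers, 13.3, 12.4 and 7.15 in Traf6 KO and 11, 5.63, 5.55 and 8.0 in control. Cat, Prdx4, Slc7a11, Mt1 and Mt2 are red in Traf6 KO 1 and 2, and Hmox1 in Traf6 KO 3.

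In the thioredoxin and glutaredoxin system, Glrx was lower and Txnip higher on average, while the carriers and reductases differed little. Glrx (chr13:75839868-75850154, plus strand), glutaredoxin, removes glutathione from oxidised protein thiols. It had 14.7, 16.5 and 18.6 CPM in Traf6 KO 1 to 3, against 26.4, 26.1, 23.1 and 25.0 CPM in controls 1 to 4. The groups stayed apart under each of 3 scalings, and the group means were 16.6 ± 1.93 CPM in Traf6 KO and 25.1 ± 1.51 CPM in control (SD, n = 3 and 4). On the log2 scale Glrx differed by -0.59 ± 0.11 (edgeR adjusted p = 0.1765, exact permutation p = 0.0571). It lay between -0.69 and -0.42 in all 18 alternative settings, among them -0.55 ± 0.13 with the acinar covariate and -0.42 without the 3 acinar-rich libraries. Among Q- and R-tagged animals the value was -0.69 ± 0.12 (edgeR adjusted p = 0.0744), and the S-tagged pair differed by -0.42.

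Txnip (chr3:96557957-96561883, plus strand), which binds and inhibits thioredoxin and is induced by glucose in beta cells, had 495, 416 and 630 CPM in Traf6 KO 1 to 3. Controls 1 to 4 had 267.2, 339, 469 and 225 CPM. Control 3 lay above Traf6 KO 2, so the groups overlapped (log2 fold change 0.66 ± 0.27, edgeR adjusted p = 0.295, exact permutation p = 0.1143). With the acinar covariate the value was 1.01 ± 0.24 (edgeR adjusted p = 0.184). Among Q- and R-tagged animals it was 0.34 ± 0.26 (edgeR adjusted p = 0.484), and within the S-tagged pair Traf6 KO 3 exceeded control 4 by 1.48 on the log2 scale. Txnip shares exon sequence with the antisense gene Gm15441, from which its reads cannot be told apart here. Txn1, the cytosolic thioredoxin, averaged 24.2 ± 7.11 CPM in Traf6 KO and 25.6 ± 5.13 CPM in control (SD, n = 3 and 4). The ratio of Txnip to Txn1 counts was 15.4, 19.0 and 33.9 in Traf6 KO 1 to 3, against 12.2, 14.3, 19.9 and 6.79 in controls 1 to 4 (exact two-sided permutation p = 0.1714, also 0.1714 after Benjamini-Hochberg adjustment over 5 ratios). The mitochondrial thioredoxin Txn2 averaged 46.9 ± 10.2 CPM in Traf6 KO and 49.0 ± 3.53 CPM in control (SD, n = 3 and 4). Txnrd1, the cytosolic thioredoxin reductase, was among the steadiest members, with 88.7 to 100.0 CPM in Traf6 KO and 84.3 to 103 CPM in control. Its mitochondrial counterpart Txnrd2 ranged over 10.1 to 13.8 CPM in Traf6 KO and 9.75 to 11.8 CPM in control.

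In glutathione synthesis the catalytic subunit of the limiting enzyme was higher in every Traf6 KO library and its modifier subunit was not. Gclc (chr9:77754535-77794485, plus strand), the catalytic subunit of glutamate-cysteine ligase, had 34.6, 40.3 and 26.3 CPM in Traf6 KO 1 to 3, against 22.6, 21.4, 22.8 and 18.4 CPM in controls 1 to 4. The groups did not overlap under any of 3 scalings (log2 fold change 0.66 ± 0.16, edgeR adjusted p = 0.189, exact permutation p = 0.0571). Gclm, the modifier subunit, had 49.8, 55.1 and 47.2 CPM in Traf6 KO 1 to 3, against 51.7, 56.2, 47.3 and 51.5 CPM in controls 1 to 4 (log2 fold change -0.03 ± 0.10, edgeR adjusted p = 0.911). Within a library the ratio of Gclc to Gclm counts was 0.696, 0.731 and 0.558 in Traf6 KO 1 to 3, against 0.437, 0.381, 0.482 and 0.356 in controls 1 to 4. Every Traf6 KO ratio exceeded every control ratio, also within the S-tagged pair, and the mean log2 ratio differed by 0.68 (exact two-sided permutation p = 0.0571, the smallest possible, and 0.1714 adjusted over 5 ratios). Gclc stayed above 0 in all 18 alternatives, from 0.33 to 0.82, with 0.50 ± 0.18 under the acinar covariate and the lowest value without the 3 acinar-rich libraries. The ratios were chosen after the values of these genes were known. Exons of Gclm overlap the pseudogene Gm6061 and, on the opposite strand, Gm17494.

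**Figure D4:**
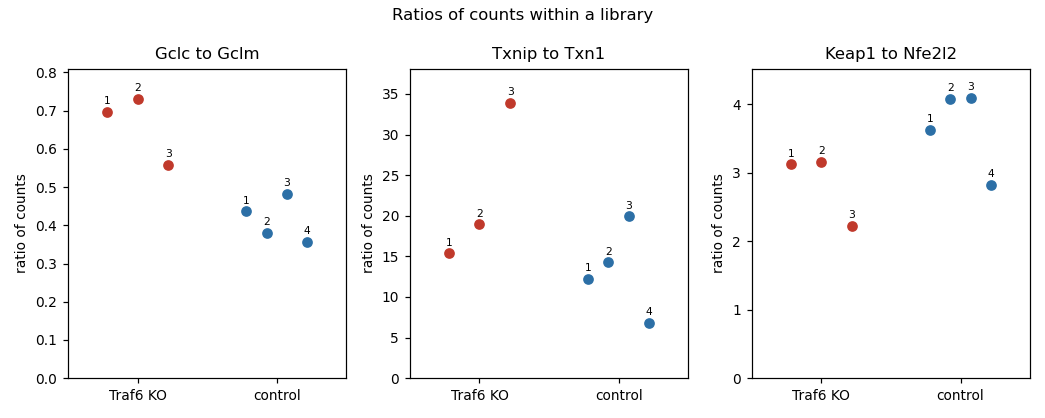
Ratios of raw counts of 2 genes within each library, Traf6 KO in red and control in blue, with library numbers above the points. The ratio of Gclc to Gclm separates the groups (0.558 to 0.731 in Traf6 KO, 0.356 to 0.482 in control), whereas Txnip to Txn1 and Keap1 to Nfe2l2 overlap.

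Slc7a11 (chr3:49892526-50443614, minus strand), which imports cystine for glutathione synthesis, was nearly silent. It had 39, 40 and 6 counts in Traf6 KO 1 to 3, against 19, 7, 6 and 2 counts in controls 1 to 4, or 3.53, 2.15 and 0.194 CPM in Traf6 KO and 0.665, 0.195, 0.176 and 0.0706 CPM in control. The exact 95% Poisson interval of the 2 counts of control 4 was 0.242 to 7.22, and that of the 39 counts of Traf6 KO 1 was 27.7 to 53.3. As with Cat and Prdx4, the 3 acinar-rich libraries were the 3 highest and Traf6 KO 3 lay next to control 2. For Slc7a11 the fitted log2 fold change, 2.77 ± 0.97 (edgeR adjusted p = 0.249), became 0.71 ± 0.78 with the acinar covariate, and it could not be fitted without control 1 or without the 3 acinar-rich libraries, where the gene missed the filter on low counts. Gss, glutathione synthetase, averaged 15.4 ± 3.71 CPM in Traf6 KO and 18.6 ± 2.14 CPM in control (SD, n = 3 and 4), and its exons overlap Acss2 on the opposite strand. Gsr, glutathione reductase, had an average of 48.4 ± 1.49 CPM in Traf6 KO and 49.8 ± 4.19 CPM in control (SD, n = 3 and 4). Of the transferases, Gstm1 had 62.1, 53.5 and 25.9 CPM in Traf6 KO 1 to 3, against 46.8, 36.6, 30.1 and 31.5 CPM in controls 1 to 4. It was again highest in Traf6 KO 1 and 2 and control 1, and its log2 fold change of 0.38 ± 0.29 turned to -0.20 ± 0.20 with the acinar covariate. Reads of Gstm1 can be shared with other mu-class genes, so its level is uncertain. Gsta4, which conjugates lipid aldehydes, stayed at or below 0.995 CPM.

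**Figure D5:**
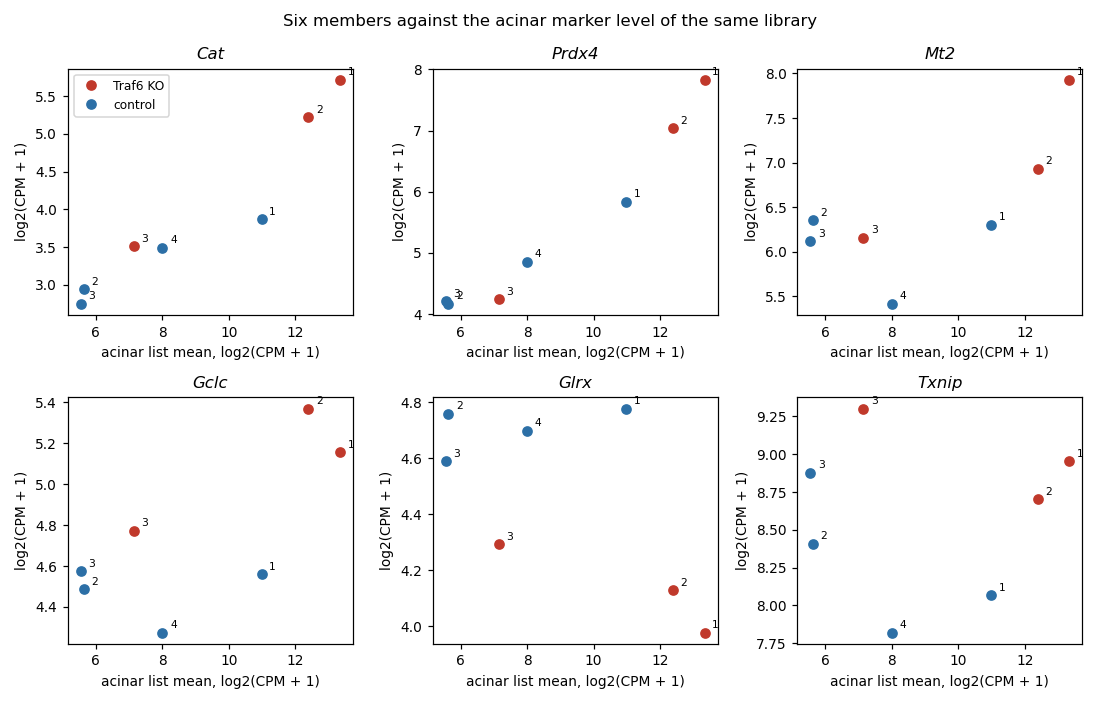
Level of 6 members as log2(CPM + 1) against the mean log2(CPM + 1) of the acinar markers in the same library, Traf6 KO in red and control in blue, numbered by library. Cat and Prdx4 climb with the acinar level across both groups, Traf6 KO 3 lies near control 4 for Cat (10.4 and 10.2 CPM), and Glrx lies lower and Gclc higher in each Traf6 KO library.

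The metallothioneins, small cysteine-rich proteins that bind zinc and copper and scavenge radicals, were both high in Traf6 KO 1 and 2. Mt1 (chr8:94179082-94180327, plus strand) had 420, 265 and 125 CPM in Traf6 KO 1 to 3, against 180, 161, 165 and 95.8 CPM in controls 1 to 4. Mt2 (chr8:94172664-94173568, plus strand), its neighbour on the chromosome, had 243, 121 and 70.5 CPM in Traf6 KO 1 to 3, against 77.9, 80.9, 68.6 and 41.8 CPM in controls 1 to 4. For both genes Traf6 KO 1 was the highest library, control 4 the lowest, and Traf6 KO 3 lay within the control range. The log2 fold changes were 0.84 ± 0.38 for Mt1 and 1.10 ± 0.40 for Mt2 (edgeR adjusted p = 0.330 and 0.260). With the acinar covariate they were 0.23 ± 0.42 for Mt1 and 0.54 ± 0.46 for Mt2, and without the 3 acinar-rich libraries Mt1 turned to -0.18 and Mt2 stood at 0.13. Mt1 and Mt2 counts kept a ratio of 1.73 to 2.18 in Traf6 KO and 1.99 to 2.40 in control. Exons of Mt2 overlap the antisense gene Gm45774. Markers of other cell types moved too. The 13 ductal markers averaged 5.84, 5.39 and 4.89 on the log2(CPM + 1) scale in Traf6 KO 1 to 3, against 5.17, 4.68, 4.53 and 4.82 in controls 1 to 4, the same order of libraries as the acinar list but for Traf6 KO 3 and control 4. Of the 12 tested, 8 had a log2 fold change above 0, and their summed share was 0.105% to 0.184% of counts in Traf6 KO and 0.120% to 0.125% in control. The 12 stellate and fibroblast markers, 11 of them above 0 with a median of 1.22, averaged 4.08, 2.58 and 3.75 in Traf6 KO 1 to 3, against 3.17, 2.74, 2.44 and 2.81 in controls 1 to 4, and took 0.00791% to 0.0302% of counts in Traf6 KO and 0.0161% to 0.0197% in control. The 11 lymphocyte markers, 8 of them above 0 and 3 below, took 0.00385%, 0.00253% and 0.0606% of counts in Traf6 KO 1 to 3. In control they took 0.00119% to 0.00941%. No marker of these lists was at 0 counts in all libraries. The part of acinar RNA in the values of Cat, Prdx4, Slc7a11, Gstm1, Mt1 and Mt2 was not tested beyond these fits. That of ductal, stellate and lymphocyte RNA was not tested. In whole-islet RNA more cells of a type and more RNA per cell cannot be told apart.

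The promoter windows of the metallothioneins are shown because both genes varied together and both hold several metal response elements. The windows run from 250 bases before to 50 bases after a RefSeq start of the gene on GRCm38.p6, and positions are relative to that start. It can lie away from the gene end given above, as for Prdx4, whose window is chrX:155338411-155338710. Capitals mark the metal response element core (TGC, then A or G, then C, any base and C) and, in Mt2, also the antioxidant response element core (TGAC, any 3 bases, then GC), each searched on both strands.
Mt1, chr8:94178839-94179138, plus strand: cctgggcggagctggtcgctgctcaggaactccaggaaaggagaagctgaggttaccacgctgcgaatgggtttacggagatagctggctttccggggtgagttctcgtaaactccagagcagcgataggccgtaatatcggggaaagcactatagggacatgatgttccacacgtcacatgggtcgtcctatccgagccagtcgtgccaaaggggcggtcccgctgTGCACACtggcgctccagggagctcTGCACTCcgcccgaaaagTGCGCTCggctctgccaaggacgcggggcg
Mt2, chr8:94172368-94172667, plus strand: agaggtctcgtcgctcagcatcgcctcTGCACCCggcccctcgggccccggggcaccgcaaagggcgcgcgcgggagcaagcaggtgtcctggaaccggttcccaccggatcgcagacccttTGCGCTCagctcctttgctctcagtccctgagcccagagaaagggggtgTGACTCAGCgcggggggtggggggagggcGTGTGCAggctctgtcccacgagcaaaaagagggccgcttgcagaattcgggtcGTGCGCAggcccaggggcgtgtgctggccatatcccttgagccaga
Mt1 held 3 metal response cores, from -23 to -17, 3 to 9 and 21 to 27 relative to the annotated start on which its window is set, all on the plus strand. Mt2 held 4, from -223 to -217 and -128 to -122 on the plus strand and from -50 to -44 and 5 to 11 on the minus strand. Its antioxidant response core lay from -79 to -71 and overlapped none of them. Of the 30 members with a window, 10 (33.3%) held at least 1 metal response core, beside 28.2% of all 27025 genes with a window, and 7 (23.3%) held an antioxidant response core, beside 14.0% of all genes. The match is one of letters and does not show binding. Sequence outside the windows was not searched, so the lack of a core holds for the window alone.

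The NRF2 system showed no common shift. Nfe2l2, which encodes NRF2, had 31.0, 28.1 and 35.3 CPM in Traf6 KO 1 to 3, against 30.7, 25.4, 26.3 and 34.3 CPM in controls 1 to 4 (log2 fold change 0.11 ± 0.14, edgeR adjusted p = 0.730). Keap1, its cytoplasmic repressor, had 96.9, 88.8 and 78.5 CPM in Traf6 KO 1 to 3, against 111, 104, 108 and 96.8 CPM in controls 1 to 4, where only control 4 was as low as Traf6 KO 1 (log2 fold change -0.25 ± 0.11, edgeR adjusted p = 0.313). The ratio of Keap1 to Nfe2l2 counts was 3.12, 3.16 and 2.23 in Traf6 KO 1 to 3, against 3.63, 4.07, 4.09 and 2.82 in controls 1 to 4 (exact two-sided permutation p = 0.1714). Keap1 reads may include those of the antisense gene Gm16754. Nqo1, a quinone reductase often used as a readout of NRF2, was low, at 1.99, 2.48 and 4.66 CPM in Traf6 KO 1 to 3, against 3.12, 2.48, 3.07 and 3.04 CPM in controls 1 to 4. Hmox1, haem oxygenase, had 3.62, 3.45 and 21.4 CPM in Traf6 KO 1 to 3, against 3.57, 7.78, 4.97 and 7.06 CPM in controls 1 to 4. Both Nqo1 and Hmox1 were highest in Traf6 KO 3 and at or near their lowest in Traf6 KO 1 and 2. For Hmox1 the log2 fold change of 0.72 ± 0.64 (edgeR adjusted p = 0.607) turned to -0.73 without Traf6 KO 3, and that of Nqo1, 0.08 ± 0.32 over all libraries, was -0.38 without it. Hmox1 is also made by macrophages, whose 14 markers, none at 0 counts in all libraries, took 0.0112% to 0.0254% of counts in Traf6 KO and 0.0224% to 0.0709% in control. Their highest share in Traf6 KO was that of library 3 and their highest share of all was that of control 4. On the log2(CPM + 1) scale, however, Traf6 KO 1 was the highest Traf6 KO library. There these markers averaged 3.17, 2.53 and 3.05 in Traf6 KO 1 to 3, against 2.84, 2.90, 2.72 and 4.40 in controls 1 to 4. Their part in Hmox1 was not tested.

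The members with an antioxidant response core were Sod1, Prdx1, Srxn1, Txnrd1, Gclm, Nfe2l2 and Mt2. The 6 members without a window, Sod3, Prdx6, Gclc, Gsr, Gsta4 and Hmox1, were not searched, so whether they hold a core is not known here. The windows of 4 textbook NRF2 targets among them are shown to set the core beside their mRNA values. Capitals mark the same cores as above.
Prdx1, chr4:116685349-116685648, plus strand: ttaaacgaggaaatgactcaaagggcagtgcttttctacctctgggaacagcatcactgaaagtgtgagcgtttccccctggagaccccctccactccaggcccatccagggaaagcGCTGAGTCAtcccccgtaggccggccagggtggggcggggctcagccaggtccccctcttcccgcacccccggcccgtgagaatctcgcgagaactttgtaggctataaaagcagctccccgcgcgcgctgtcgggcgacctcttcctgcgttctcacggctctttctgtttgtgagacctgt
Srxn1, chr2:152105274-152105573, plus strand: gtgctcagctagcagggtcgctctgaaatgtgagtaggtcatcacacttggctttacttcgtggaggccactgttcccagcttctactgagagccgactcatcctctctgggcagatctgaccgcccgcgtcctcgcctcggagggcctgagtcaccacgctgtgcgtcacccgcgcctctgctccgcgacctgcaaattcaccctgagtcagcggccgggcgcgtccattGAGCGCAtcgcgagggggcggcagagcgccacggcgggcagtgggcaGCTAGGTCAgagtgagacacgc
Txnrd1, chr10:82858956-82859255, plus strand: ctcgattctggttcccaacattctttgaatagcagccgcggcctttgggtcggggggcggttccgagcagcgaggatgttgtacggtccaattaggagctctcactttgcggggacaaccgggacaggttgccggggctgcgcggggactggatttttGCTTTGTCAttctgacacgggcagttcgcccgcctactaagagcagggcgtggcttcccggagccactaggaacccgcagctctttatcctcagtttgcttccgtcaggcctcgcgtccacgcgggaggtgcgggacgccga
Gclm, chr3:122245307-122245606, plus strand: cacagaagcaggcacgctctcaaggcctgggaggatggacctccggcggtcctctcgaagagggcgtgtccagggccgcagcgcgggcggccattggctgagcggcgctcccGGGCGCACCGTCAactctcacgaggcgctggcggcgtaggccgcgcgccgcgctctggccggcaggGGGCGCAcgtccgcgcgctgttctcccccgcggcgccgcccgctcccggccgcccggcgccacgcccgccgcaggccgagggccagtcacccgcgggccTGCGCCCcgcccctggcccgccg
The core lay from -133 to -125 in Prdx1, from 29 to 37 in Srxn1, from -92 to -84 in Txnrd1 and from -134 to -126 in Gclm, each on the minus strand. The other 2 windows of Txnrd1, which start at 82833701 and 82860091, held no such core. In Gclm it overlapped a metal response core from -138 to -132, and 2 more of these stood from -72 to -66 and from 28 to 34. Srxn1 held 1 metal response core, from -19 to -13. The log2 fold changes of these genes were -0.29 (Prdx1), -0.24 (Srxn1), 0.02 (Txnrd1) and -0.03 (Gclm), against 1.10 for Mt2. No core of either kind was found in the windows of Cat and Slc7a11, whereas Prdx4 and Glrx each held a metal response core, from -58 to -52 in Prdx4 and from -125 to -119 in Glrx (in the window that starts at 75839635).

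Other genes of these pathways, taken from lists by role, gave 0 calls with edgeR in either direction. Of the 21 tested genes of glutathione turnover and cysteine supply, 16 had a log2 fold change above 0 and 5 below, with a median of 0.39. Chac1, which degrades glutathione, had 61.7, 21.7 and 16.8 CPM in Traf6 KO 1 to 3, against 10.9, 8.36, 9.10 and 7.91 CPM in controls 1 to 4. Slc1a5, a glutamine transporter, had 34.6, 24.6 and 9.88 CPM in Traf6 KO 1 to 3, against 8.96, 2.79, 5.03 and 5.68 CPM in controls 1 to 4. In both, the groups did not overlap, and the values were highest in Traf6 KO 1, the library with the most acinar RNA (log2 fold changes 1.87 ± 0.42 and 2.03 ± 0.48, edgeR adjusted p = 0.183 and 0.189). Of 17 other glutathione transferases 10 lay above 0 (median 0.38), led by Gstt3 and Gstm2, which had 13.5 and 50.2 CPM in Traf6 KO 1 but only 0.486 and 8.58 CPM in Traf6 KO 3. Genes of NADPH supply (7 of 15 above 0, median -0.02) and further thioredoxin-fold and repair enzymes (13 of 26, median 0.01) showed no common direction. Among these Park7, a redox-sensitive chaperone, averaged 81.8 ± 13.4 CPM in Traf6 KO and 107 ± 3.63 CPM in control, and Glrx5, a mitochondrial glutaredoxin, averaged 52.7 ± 6.12 CPM in Traf6 KO and 66.8 ± 2.89 CPM in control (SD, n = 3 and 4). Mthfd2, a mitochondrial folate enzyme, and Pgd, of the pentose phosphate pathway, had log2 fold changes of 0.83 ± 0.33 and -0.20 ± 0.09 (edgeR adjusted p = 0.284 and 0.325).

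Partners and targets of NRF2 had a median of 0.11, with 16 of 26 above 0. Bach1, a repressor at antioxidant response elements, had 22.4, 35.8 and 31.3 CPM in Traf6 KO 1 to 3, against 20.2, 18.8, 20.8 and 20.1 CPM in controls 1 to 4 (log2 fold change 0.58 ± 0.15, edgeR adjusted p = 0.201). Rbx1, a subunit of the ubiquitin ligase that KEAP1 recruits, had 36.9, 40.6 and 40.4 CPM in Traf6 KO 1 to 3, against 55.5, 55.5, 59.5 and 56.0 CPM in controls 1 to 4 (log2 fold change -0.53 ± 0.08, edgeR adjusted p = 0.1765). Of 21 selenoproteins and genes of their synthesis 10 lay above 0 (median -0.02), and the small selenoproteins Selenow and Selenom were lower in every Traf6 KO library. Selenow averaged 72.5 ± 9.58 CPM in Traf6 KO and 107 ± 4.84 CPM in control, and Selenom averaged 70.8 ± 12.6 CPM in Traf6 KO and 107 ± 8.01 CPM in control (SD, n = 3 and 4, edgeR adjusted p = 0.1765 and 0.189). In the list of metal handling (7 of 11 above 0, median 0.12), Slc30a1, a zinc exporter and target of metal response elements, had 22.6, 26.1 and 24.8 CPM in Traf6 KO 1 to 3, against 16.5, 16.4, 20.2 and 21.04 CPM in controls 1 to 4. Atox1, a copper chaperone, averaged 8.12 ± 1.96 CPM in Traf6 KO and 12.7 ± 1.77 CPM in control (SD, n = 3 and 4). Of the 7 tested oxidant-producing oxidases 4 lay above 0 (median 0.04). Noxo1, an organiser of an NADPH oxidase, averaged 7.59 ± 0.241 CPM in Traf6 KO and 11 ± 0.997 CPM in control, and Xdh, xanthine dehydrogenase, 4.26 ± 1.05 CPM in Traf6 KO and 3.12 ± 1.38 CPM in control (SD, n = 3 and 4). For none of these genes did the edgeR adjusted p fall below 0.1765.

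The values within the tag series were as follows. Among Q- and R-tagged animals, 2 Traf6 KO and 3 control libraries, edgeR called 0 of the 36 members, and 9 had an unadjusted p under 0.05, beside 3452 of 16200 genes tested. There the log2 fold change was 2.34 ± 0.38 for Cat, 2.56 ± 0.57 for Prdx4, 3.04 ± 0.66 for Slc7a11, 1.26 ± 0.28 for Mt2 and 0.75 ± 0.11 for Gclc. In the S-tagged pair, Traf6 KO 3 against control 4, the log2 difference was 0.02 for Cat, -0.64 for Prdx4, 0.76 for Mt2 and 0.52 for Gclc, with 1 library on each side and no test. Acinar counts were 56.5% and 43.1% in the Traf6 KO libraries and 0.467% to 20.2% in the controls of the Q and R tags, but 1.64% in Traf6 KO 3 and 3.24% in control 4 of the S tag. Whether the tag series itself changes the difference between genotypes was not tested, and S holds a single library of each genotype. Traf6 KO 3 and control 4 also differed in Xist (421 and 0.388 CPM) and Ddx3y (0 and 38.9 CPM). In this pair sex and genotype cannot be told apart. In the Q and R values the consecutive tags of Traf6 KO 1, Traf6 KO 2 and control 1 cannot be told apart from their acinar RNA.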

How the data were processed

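RNA of isolated islets was measured in 7 libraries, 3 of Traf6 KO and 4 of control mice, read in paired 151 bp cycles per the labels. Per gene, the authors deposited raw counts in whole numbers, not normalized, in a single table. Per the submitters' processing notes, which give neither role nor order, the tools were FastQC, RSEM 1.3.1 and STAR 2.6.1b and the genome was GRCm38, so the counts may be rounded estimates in which similar genes share reads. For the annotation, strand setting and gene filter, the choice is not given in the sources used here. Of 55487 identifiers, 55227 are in GENCODE M21 (GRCm38), which gave coordinates, exon lengths and overlaps.

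The main comparison used edgeR 4.0.16 under R 4.3.3 (quasi-likelihood F test, TMM, genotype as the only term, filterByExpr at min.count 10 and min.total.count 15), and p-values were adjusted by Benjamini-Hochberg over all 16203 genes tested, with 0.05 as the threshold. CPM divides each count by the library total times its TMM factor and scales it to the usual unit. The factors were 0.500, 0.740 and 1.35 in Traf6 KO 1 to 3 and 0.954, 1.30, 1.26 and 1.28 in controls 1 to 4, so CPM of the acinar-rich libraries is raised against one on plain totals. The SE is the absolute log2 fold change over the square root of F. The fit was tested first on simulated counts, with the same dispersion for all genes of a run. Acinar differences between libraries were not simulated, so that test does not cover them. Exact permutation tests ran over the 35 ways to divide 7 libraries into 3 and 4. All pairs of libraries differed beyond counting noise (lowest chi-square per gene 21.8 over 21 pairs). The labels do not state outright that libraries are separate mice, so p-values measure the spread between these samples, which may be technical. Intervals of counts cover counting error only. Alternatives were DESeq2 1.42.0 size factors and Wald test, upper-quartile factors, limma 3.58.1 voom, other low-count filters, each library left out, the replicate number as a block, a covariate for the acinar level, the tag series as a term, and Q- and R-tagged libraries only.

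The members and lists were chosen with earlier results of these data known. Named genes are the 36 members, Traf6, Ins1, Ins2, Xist and Y-linked genes, and, in each list of other pathway genes, those called or otherwise the 2 with the smallest p at a mean CPM of at least 1. Protein sequences of the members were not used here.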

Additional observations from a re-analysis of the deposited data

Results flagged for a closer look

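Among the 36 members, 3 had a control library far from the other 3 controls. Chance alone sets about 5% of groups of 4 apart in this way. Gpx1 stood at 88.6 CPM in control 3, against 81.5 to 82.3 CPM in the other controls. Txn1 stood at 33.1 CPM in control 4, against 21.8 to 23.7 CPM in the other controls. Nqo1 stood at 2.48 CPM in control 2, against 3.04 to 3.12 CPM in the other controls. Groups of 3, and so the Traf6 KO libraries, were not examined in this way.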

How the results depend on the processing

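The 36 members were tested under 18 alternatives, 1 of them (without the 3 acinar-rich libraries, which leaves 1 Traf6 KO library assumed to vary like the controls) chosen after seeing the data. Slc7a11 and Gsta4 did not pass the filter in every alternative and have 15 and 16. In each, the median log2 fold change of members moved by less than 0.226. This is the larger of the SDs of the member mean within a group, that of Traf6 KO. The median moved furthest without the 3 acinar-rich libraries, from -0.036 to -0.18. The sign held in all alternatives for 18 members and turned in some for the other 18. Over all genes the count of calls was 0 in the main comparison (2589 genes at an unadjusted p under 0.05), 744 with the DESeq2 Wald test (489 higher, 255 lower), 0 with limma-voom, 3 with the acinar covariate, 67 without the 3 acinar-rich libraries, and 0 to 701 when 1 library was left out. Of the members 3 were called by DESeq2 (2 higher, 5.71%, and 1 lower, 2.86%, beside 3.43% and 1.79% of all genes). With 1 library left out 0 to 5 members were called, the 5 beside 701 of 16540 genes tested without Traf6 KO 3. The cause of these differences was not tested. Members with every Traf6 KO library above every control numbered 8 among Q- and R-tagged animals (22.2%, beside 19.5% of all genes) and 10 without the 3 acinar-rich libraries (27.8%, beside 32.0%). With 1 library left out they numbered 1 to 8, the 8 being 22.2% beside 16.5% of all genes, without Traf6 KO 3. Those below numbered 5 with upper-quartile factors (13.9%, beside 10.8%), 5 among Q- and R-tagged animals (13.9%, beside 21.7%) and 17 without the 3 acinar-rich libraries (47.2%, beside 32.9%). With 1 library left out they numbered 2 to 11, the 11 being 30.6% beside 14.5% of all genes, without Traf6 KO 1. No test was made of these shares.

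Signs turned as follows. With upper-quartile factors Sod2 was -0.028 and Txnrd1 -0.018. With no low-count filter they were -0.0093 and -0.0014. With the acinar covariate Sod2 was -0.076, Gpx1 0.023, Gpx7 0.13, Gpx8 0.049, Prdx3 -0.15 and Gstm1 -0.20. Among Q- and R-tagged animals Gpx4 was 0.058, Txn1 0.23, Txnrd1 -0.070, Gclm 0.020, Nqo1 -0.36 and Hmox1 -0.63, and with the tag series as a term Nqo1 was -0.056. Without the 3 acinar-rich libraries Sod2 was -0.18, Gpx1 0.10, Gpx3 0.35, Gpx8 0.046, Prdx3 -0.32, Prdx4 -0.22, Txnrd2 -0.070, Gstm1 -0.34 and Mt1 -0.18. With 1 library left out, the range was -0.031 to 0.099 for Sod2, -0.17 to 0.10 for Gpx1, -0.20 to 0.18 for Gpx3, -0.39 to 0.053 for Gpx4, -0.65 to 0.37 for Gpx7, -0.47 to 0.10 for Gpx8, -0.091 to 0.33 for Prdx3, -0.33 to 0.076 for Txn1, -0.25 to 0.040 for Txn2, -0.028 to 0.075 for Txnrd1, -0.082 to 0.021 for Gclm, -0.077 to 0.029 for Gsr, -0.38 to 0.30 for Nqo1 and -0.73 to 1.11 for Hmox1.

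The replicate block called 6 genes, 0 of them members, and gave Sod2 -0.010, Txn1 0.030 and Txnrd1 -0.022. Deviations of same-numbered libraries correlated at 0.60, -0.18 and 0.45, and only Traf6 KO 1 correlated best with its own number. Traf6 KO 2 also correlated best with the acinar-rich control 1 (0.53), so these correlations cannot show whether the numbers pair the samples. The lowest member count was 2 (Slc7a11), and members under 2 CPM rest on few reads.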
